A study of Mus musculus with 6 samples.

Results

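Kidney tubule transcripts were followed through 6 bulk RNA-seq samples of CD8+ T cells that had been isolated from mouse spleens. The 8 genes, Kap, Miox, Gpx3, Slc34a1, Umod, Fxyd2, Lrp2 and Cyp2e1, were chosen by their measured values in these same samples, out of 28773 genes listed in each. Their levels are therefore a description, without a test. All 8 were found in every file by symbol. The question was which samples carried these transcripts together.

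The 6 samples formed 2 groups of 3 and were all collected on day 35. Mice of the MWA+PBS group (replicates 1 to 3) had their primary tumor treated by microwave ablation (MWA), a local heat treatment, followed by intraperitoneal PBS, the vehicle. Mice of the MWA+2DG group (replicates 4 to 6) had the same ablation followed by intraperitoneal 2-deoxy-D-glucose (2DG), a glucose analogue that blocks glycolysis. Tumor and ablation were thus shared by both groups. Per the study's methods, all mice were female, PBS or 2DG was given every other day after ablation, and CD8+ T cells were obtained from dissociated spleens with a CD8+ T cell isolation kit. The labels give neither the strain, the age nor the tumor line of the mice behind these samples, and they do not say whether each sample was a separate animal or a pool.

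The nephron, the working unit of the kidney, filters blood in the glomerulus and then recovers water, salts and nutrients along a tube of successive segments. The proximal tubule takes up glucose, amino acids, phosphate, organic anions and filtered protein, makes glucose and breaks down myo-inositol. The loop of Henle and distal tubule move sodium, chloride and calcium, and the collecting duct sets water balance through aquaporins. Lymphocytes are not known for most of these functions, although some of the genes used as tubule markers are active in other tissues.

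The samples had the marker genes of their labelled cell type. The 6 CD8 T cell identity genes (Cd8a, Cd8b1, Cd3e, Cd3d, Cd3g and Trac) summed to between 1007.51 and 1065.06 FPKM in MWA+PBS and between 1480.19 and 1571.88 FPKM in MWA+2DG. FPKM are fragments scaled to transcript length and to the mapped fragments of the library, so levels are per length and relative to each library. Between 22414 and 23340 genes were above 0 per sample. MWA+PBS replicates 1 and 2 stood apart from the other 4 samples in the 8 genes, the values they were chosen on, and replicate 2 stood apart from the other MWA+PBS samples in the summed level of epithelial and of intestinal genes. Fewer cells of a type and less RNA per cell cannot be told apart in such bulk samples.

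The kidney genes are identified below by their promoters, since the transcription factors HNF1 and HNF4 are known regulators of tubule genes. The windows are the 250 bases before the RefSeq start site in mouse build GRCm38.p6, on the strand of the gene. The expression files were made on mm9 per the submitters' processing notes, so these coordinates do not apply to them. Capitals mark GTTAAT or its reverse complement ATTAAC, the core letters of an HNF1 site, and TATAAA, the TATA box, on the gene's strand. Kap (chr6:133853668-133853917, minus strand) held TATAAA 31 bases before its start. Miox (chr15:89334223-89334472, plus strand) held ATTAAC at 142 and TATAAA at 40 bases. Slc34a1 (chr13:55399398-55399647, plus strand) held ATTAAC at 89 and GTTAAT at 61 bases. Umod (chr7:119479263-119479512, minus strand) held GTTAAT at 202 bases. These 4 are shown because 3 of them hold the HNF1 letters and Kap was the most abundant transcript of the set.
Kap: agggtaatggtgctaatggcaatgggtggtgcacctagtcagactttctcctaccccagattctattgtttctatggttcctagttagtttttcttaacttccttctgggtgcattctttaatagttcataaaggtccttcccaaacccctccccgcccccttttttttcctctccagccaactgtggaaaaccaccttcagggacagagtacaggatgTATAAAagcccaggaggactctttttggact
Miox: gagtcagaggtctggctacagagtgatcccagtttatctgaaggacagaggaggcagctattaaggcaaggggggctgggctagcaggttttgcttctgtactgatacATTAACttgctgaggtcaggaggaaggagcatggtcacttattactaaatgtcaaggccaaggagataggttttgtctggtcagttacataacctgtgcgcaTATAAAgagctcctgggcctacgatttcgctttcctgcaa
Slc34a1: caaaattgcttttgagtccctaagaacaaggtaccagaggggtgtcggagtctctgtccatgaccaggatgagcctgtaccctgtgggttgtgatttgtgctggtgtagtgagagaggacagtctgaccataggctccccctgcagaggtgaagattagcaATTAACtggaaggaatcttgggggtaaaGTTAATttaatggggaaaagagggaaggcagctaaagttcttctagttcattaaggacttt
Umod: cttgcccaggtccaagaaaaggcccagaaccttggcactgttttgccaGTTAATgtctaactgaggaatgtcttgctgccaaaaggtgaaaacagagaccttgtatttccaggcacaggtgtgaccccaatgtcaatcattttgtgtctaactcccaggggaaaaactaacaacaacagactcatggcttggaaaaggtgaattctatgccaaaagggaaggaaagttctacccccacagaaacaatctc

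RefSeq windows were matched for 7 of the 8 genes, all but Fxyd2. GTTAAT on either strand was in 3 of these 7 windows and in 6.43% of 32851 windows of the same length. TATAAA on the gene's strand was in 3 of 7, the third gene being Cyp2e1, against 7.59% of all windows. CAAAGTCCA, an HNF4 site, searched on both strands, was in 0 of 7 and in 0.384% of all windows. The 3 motifs have different letters, and a match describes the sequence only.

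Kap, which encodes kidney androgen-regulated protein of the proximal tubule, was at 31.58 FPKM in MWA+PBS replicate 1 and 67.72 FPKM in replicate 2. It was listed at 0 in MWA+PBS replicate 3 and in all 3 MWA+2DG samples. The transcript was thus high in 2 samples of 1 group, and the third sample of that group had none listed.

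Miox, the myo-inositol oxygenase of proximal tubule cells, had 1.45 FPKM in MWA+PBS replicate 1 and 1.61 FPKM in replicate 2, and was listed at 0 in the other 4 samples. Slc34a1, the sodium phosphate cotransporter of the proximal brush border, had 1.08 and 1.04 FPKM in the same replicates and was listed at 0 elsewhere. Cyp2e1, a cytochrome P450 that liver also makes in quantity, had 1.94 and 2.26 FPKM and was listed at 0 elsewhere. For these 3 genes replicates 1 and 2 were close to each other and replicate 3 was with the MWA+2DG samples.

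Lrp2 encodes megalin, the endocytic receptor that takes up filtered protein. Its FPKM was 0.10 and 0.16 in MWA+PBS replicates 1 and 2, 0.01 in MWA+2DG replicate 4, and listed at 0 in MWA+PBS replicate 3 and MWA+2DG replicates 5 and 6. It was the least abundant of the 8, near the 2-decimal rounding of the files.

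Umod and Fxyd2 are made mainly beyond the proximal tubule or along several segments. Umod, which encodes uromodulin, the main secreted protein of the thick ascending limb, had 1.99 FPKM in MWA+PBS replicate 1 and 1.53 FPKM in replicate 2, and was listed at 0 in the other 4 samples. Fxyd2, the gamma subunit of the sodium pump, had 1.28, 0.64 and 0.02 FPKM in MWA+PBS replicates 1, 2 and 3 and was listed at 0 in all MWA+2DG samples. Both were higher in replicate 1 than in replicate 2, as were Gpx3 and Slc34a1 but not Kap.

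Gpx3, the extracellular glutathione peroxidase that the proximal tubule secretes and other tissues also express, was the only one of the 8 above 0 in all 6 samples. Its FPKM was 27.84, 24.36 and 2.10 in MWA+PBS replicates 1, 2 and 3, and 1.12, 0.73 and 0.89 in MWA+2DG replicates 4, 5 and 6. The group values were 18.1 ± 14.0 FPKM for MWA+PBS and 0.913 ± 0.196 FPKM for MWA+2DG (SD, n = 3 each). The lower of MWA+PBS replicates 1 and 2 was 11.6 times the highest of the other 4 samples, and most of the spread within MWA+PBS lay between replicate 3 and the other 2.

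**Figure D1:**
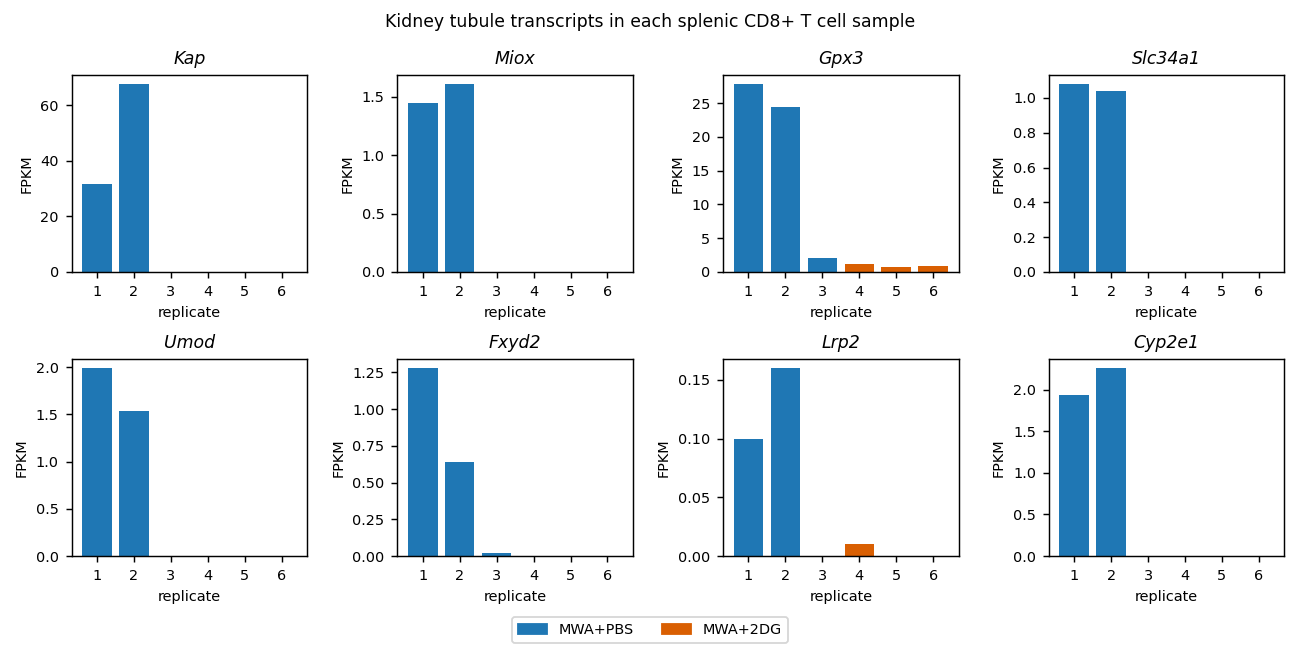
FPKM of each of the 8 kidney tubule genes (vertical axes, each from 0) in the 6 samples (horizontal axes, replicates 1 to 3 MWA+PBS in blue, 4 to 6 MWA+2DG in orange), 1 bar per sample. Bars stand in replicates 1 and 2 for all 8 genes, and in replicate 3 and the MWA+2DG samples only Gpx3, Fxyd2 (0.02 FPKM) and Lrp2 (0.01 FPKM) are above 0.

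Summed over the 8 genes, MWA+PBS replicates 1, 2 and 3 had 67.26, 99.32 and 2.12 FPKM. The MWA+2DG replicates 4, 5 and 6 had 1.13, 0.73 and 0.89 FPKM. The transcripts together made up 0.0218% and 0.0317% of the total FPKM in MWA+PBS replicates 1 and 2. Kap alone was 47.0% of the sum in replicate 1 and 68.2% in replicate 2, so the higher sum of replicate 2 came from Kap: without it the sums were 35.7 and 31.6 FPKM. All 8 genes were above 0 in replicates 1 and 2, against 2 in replicate 3, 2 in MWA+2DG replicate 4 and 1 each in replicates 5 and 6. All 8 had their 2 highest values in MWA+PBS replicates 1 and 2, the pattern they were chosen on, which 11.3% of 22979 genes with a highest FPKM of at least 0.1 also had. Of the 8, 4 were highest in replicate 1 (Gpx3, Slc34a1, Umod and Fxyd2) and 4 in replicate 2 (Kap, Miox, Lrp2 and Cyp2e1).

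The other kidney genes came from lists of segment markers that hold none of the 8. The lists name 57 genes, 55 of which were in the files, and 44 of these reached 0.1 FPKM in some sample. Of the 44, 33 (75.0%) had their 2 highest values in MWA+PBS replicates 1 and 2, beside the 11.3% over all genes. The highest sample was MWA+PBS replicate 1 for 14 genes, replicate 2 for 25, replicate 3 for 1, MWA+2DG replicate 4 for 0, and replicates 5 and 6 for 2 each. The genes share the libraries, so these counts carry no test.

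**Figure D2:**
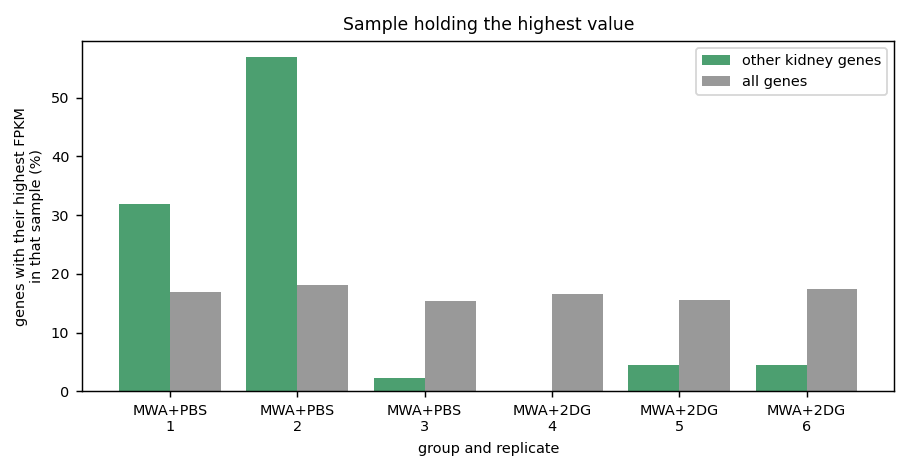
Share of genes, in percent (vertical axis from 0), whose highest FPKM was in each sample (horizontal axis, group and replicate), for the 44 other kidney genes (green) and all 22979 genes (grey) with a highest FPKM of at least 0.1. MWA+PBS replicates 1 and 2 hold 31.8% and 56.8% of the kidney genes, against 16.9% and 18.1% of all genes.

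By segment, 24 of 28 proximal tubule genes had both highest values in MWA+PBS replicates 1 and 2, as did 6 of 8 loop of Henle and distal tubule genes, 1 of 6 collecting duct genes and 2 of 2 pan-tubule genes. Several transporters of the proximal tubule were read in these 2 samples only. Slc22a12, the urate transporter, had 0.61 and 0.81 FPKM in replicates 1 and 2 and was listed at 0 in the other 4 samples. Slc5a2, the glucose transporter SGLT2, had 0.20 and 0.30 FPKM and was listed at 0 elsewhere. Slc22a6, the organic anion transporter OAT1, had 0.27 and 0.53 FPKM and was also listed at 0 elsewhere. All 3 are carriers of the tubule cell membrane, each at under 1 FPKM, but not every carrier on the list followed them. Slc3a1, a subunit of the cystine transporter, had FPKM of 0.98, 1.70 and 1.11 in MWA+PBS, against 0.78, 0.68 and 0.39 in MWA+2DG.

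Some metabolic genes of the proximal tubule list were above 1 FPKM in both of these samples. Slc27a2, a fatty acid transporter and acyl-CoA synthetase, had 1.46 and 2.07 FPKM in MWA+PBS replicates 1 and 2, 0.02 FPKM in MWA+2DG replicate 4, and was listed at 0 in the other 3 samples. Pck1, the gluconeogenic phosphoenolpyruvate carboxykinase, had 1.27 and 3.98 FPKM, was listed at 0 in MWA+PBS replicate 3, and had 0.27, 0.19 and 0.20 FPKM in MWA+2DG. For Pck1, MWA+PBS replicate 3 was the lowest of the 6 samples. Acy3, an aminoacylase, had FPKM of 1.49, 2.16 and 0.21 in MWA+PBS, was listed at 0 in MWA+2DG replicate 4, and had 0.15 and 0.17 in replicates 5 and 6. Cyp4b1, a cytochrome P450, had FPKM of 1.78, 2.01 and 0.17 in MWA+PBS, against 0.11, 0.10 and 0.09 in MWA+2DG.

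Beyond the proximal tubule, Slc12a1, the sodium potassium chloride cotransporter of the thick ascending limb, had 0.43 and 0.26 FPKM in MWA+PBS replicates 1 and 2 and was listed at 0 elsewhere. Aqp2, the vasopressin-regulated water channel of the collecting duct, had 1.12 and 0.25 FPKM and was listed at 0 elsewhere. Cdh16, the kidney-specific cadherin, had 0.38 and 0.52 FPKM and was listed at 0 elsewhere. Aqp2 stood alone among the collecting duct genes: the other 5 that reached 0.1 FPKM did not have both highest values in these 2 samples, and the list summed to 9.06, 6.68 and 7.96 FPKM in MWA+PBS and to between 10.04 and 10.28 FPKM in MWA+2DG.

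All 55 other kidney genes summed to 74.55, 76.78 and 51.01 FPKM in MWA+PBS replicates 1, 2 and 3 and to 35.46, 32.05 and 35.54 FPKM in MWA+2DG replicates 4, 5 and 6. Of the 55, 29 were at most 0.05 FPKM in each of the other 4 samples, a limit set after the data were seen. These 29 summed to 8.74 and 9.81 FPKM in MWA+PBS replicates 1 and 2, and their low sum elsewhere follows from the limit. Of the 55, 17 were above 0 in all 6 samples. Among these 17, Ass1, argininosuccinate synthase, had FPKM of 19.90, 18.44 and 20.14 in MWA+PBS, against 15.93, 13.12 and 15.28 in MWA+2DG. Dnase1, a secreted nuclease, had FPKM of 4.24, 4.76 and 3.24 in MWA+PBS, against 3.28, 3.42 and 3.73 in MWA+2DG. Aqp3, a water and glycerol channel, had FPKM of 5.70, 4.23 and 6.03 in MWA+PBS, against 5.82, 5.79 and 6.97 in MWA+2DG. These 3 were carried by every sample, replicate 3 included.

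**Figure D3:**
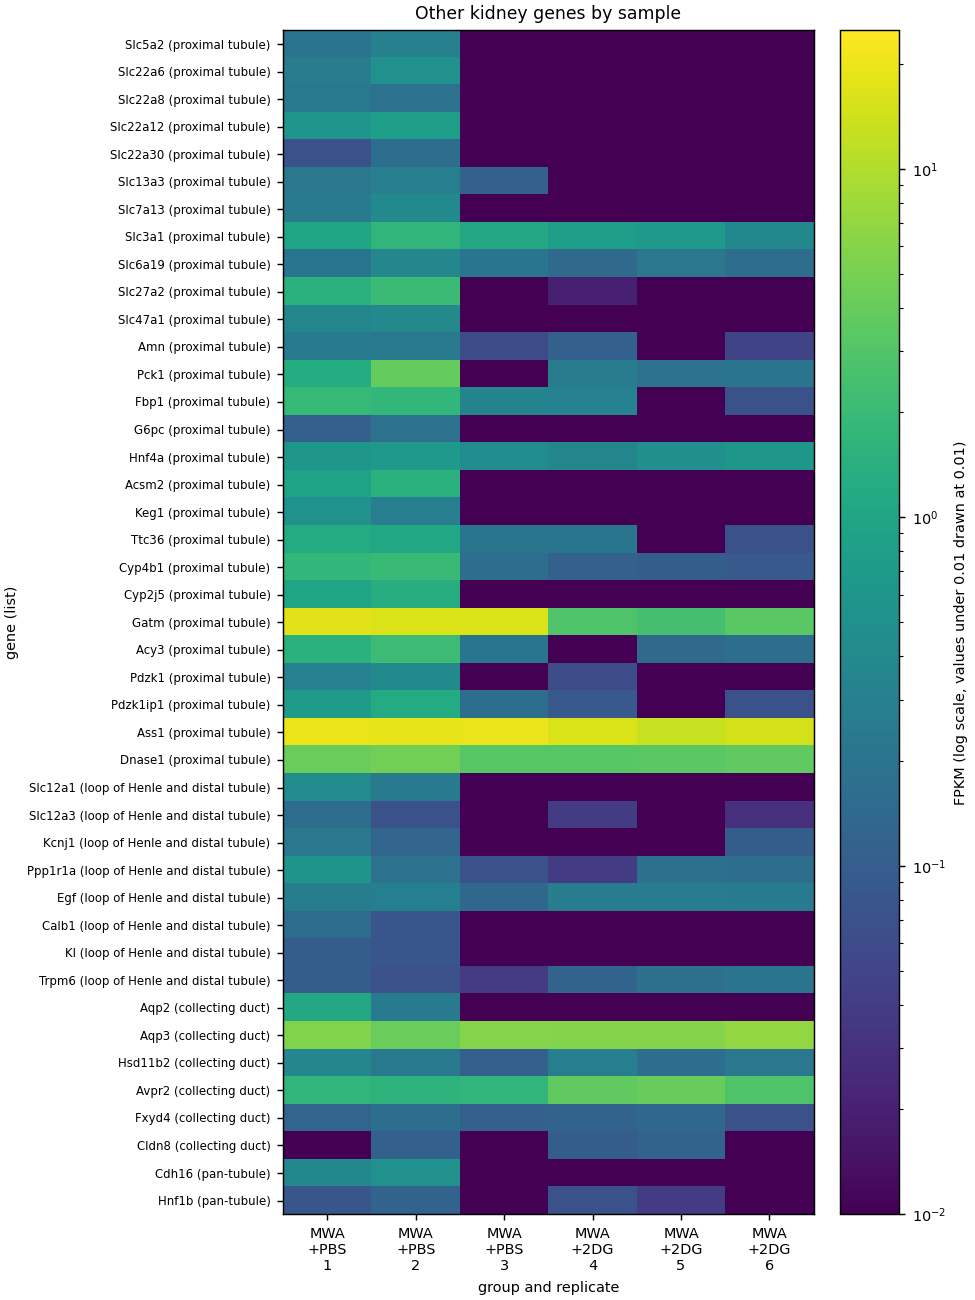
FPKM of other kidney genes (rows, with their list) in the 6 samples (columns), as colour on a log scale, values under 0.01 drawn at 0.01. The left 2 columns, MWA+PBS replicates 1 and 2, are filled for genes that are dark in the other 4, while Gatm, Ass1, Dnase1, Aqp3 and Avpr2 are bright in all 6.

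The ratio of MWA+PBS replicate 2 to replicate 1 was compared by segment. Among genes of at most 0.05 FPKM in the other 4 samples and at least 0.1 FPKM in 1 of the pair, 14 of 17 proximal tubule genes were higher in replicate 2, with a median ratio of replicate 2 to replicate 1 of 1.42 (0.528 to 2.43). In the loop, distal tubule and collecting duct, 0 of 6 genes were higher in replicate 2, and the median ratio was 0.552 (0.223 to 0.800). Kap had a ratio of 2.14, Umod of 0.769 and Aqp2 of 0.223. Over all 12053 genes with at least 1 FPKM in both samples, a level most of these segment genes did not reach, the median ratio was 1.01. Without the 8 genes the counts were 10 of 12 and 0 of 5. Several values lay near the 2-decimal rounding of the files, such as Kl at 0.10 and 0.08 FPKM in replicates 1 and 2. Listed genes above the 0.05 FPKM limit were left out. Among those beyond the proximal tubule, Egf and Fxyd4 were higher in replicate 2, and Ppp1r1a and Hsd11b2 in replicate 1. The comparison was chosen after the data were seen and rests on 1 pair of libraries, so no test was made.

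**Figure D4:**
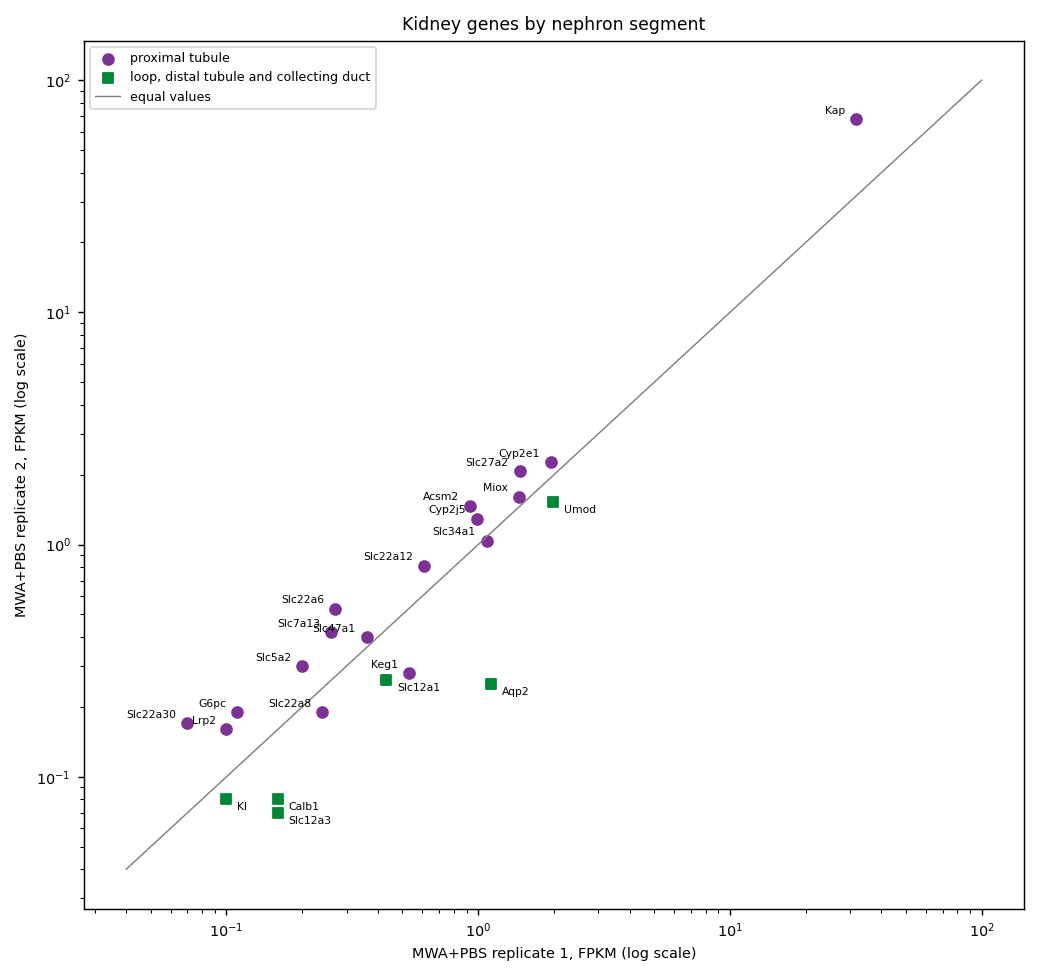
FPKM in MWA+PBS replicate 2 (vertical, log scale) against replicate 1 (horizontal, log scale) for 17 proximal tubule genes (purple circles) and 6 loop, distal tubule and collecting duct genes (green squares), with the line of equal values. All 6 green squares lie below the line, as do 3 purple circles, Slc34a1, Slc22a8 and Keg1.

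A search over all 28773 genes asked which others shared the pattern of at least 0.5 FPKM in both MWA+PBS replicates 1 and 2 and at most 0.05 FPKM in each other sample. It returned 12 genes, or 0.0417%. Of these, 6 were among the 8 (all but Gpx3 and Lrp2), 4 were on the kidney lists (Slc27a2, Acsm2, Cyp2j5 and Slc22a12) and 2 were on no list. One of these, Cltrn, which encodes collectrin, a partner of amino acid transporters in the proximal tubule, had 2.08 and 1.48 FPKM in the pair and 0.05 FPKM in MWA+2DG replicate 5. The search values fix the pattern of these genes, so only their identity is descriptive. With at least 0.2 FPKM in the pair the search returned 48 genes, 6 of the 8, 12 on the kidney lists and 30 on neither, among them Slc17a1, Ugt3a2, Kcnj15 and Inmt.

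The genes nearest in profile to the mean of the 8, over 6 samples and among 13758 candidates with a highest FPKM of at least 1, included Slc27a2, Cltrn, Cyp2j5, Acsm2, Cyp4b1, Mir7116, Gm7030, n-R5s39 and Aqp2. The measure was the mean absolute difference of centred log2(FPKM + 0.1) values, which ran from 0.15 for Slc27a2 to 0.68 for Aqp2. Of the nearest 10, 6 were on the kidney lists, which held 0.124% of the candidates. The profile came from genes chosen on these values, and the nearest 10 reached 1 FPKM only in MWA+PBS replicates 1 or 2. Their share is thus a description, without a test. Among the 8 themselves, Cyp2e1, Umod and Miox lay nearest their mean and Kap, at 2.05, farthest.

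The planned contrast of the groups, MWA+2DG minus MWA+PBS, was fitted with limma on log2(FPKM + 1) for 12444 genes with a mean FPKM of at least 1. At a limma adjusted p under 0.05, MWA+2DG was higher in 22.3% and lower in 17.1% of them, that is in 2773 and 2134 genes, or in 2328 and 2460 after median ratio scaling. Only 6 of the other kidney genes passed the filter. Of the 6, 1 was higher and 2 were lower, and their median log2 fold change was -0.28, beside 0.05 over all genes tested.

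Gatm, glycine amidinotransferase of creatine synthesis, had FPKM of 17.47, 15.97 and 16.24 in MWA+PBS, against 2.92, 2.47 and 3.38 in MWA+2DG. The log2 difference was -2.17 with an SE of 0.0927 (limma adjusted p = 4.55e-06). Unlike the 8 genes, Gatm was as high in replicate 3 as in replicates 1 and 2. Ass1 was also lower in MWA+2DG, with a log2 difference of -0.38 and an SE of 0.0797 (limma adjusted p = 0.00788). Avpr2, the vasopressin receptor of the collecting duct, had FPKM of 1.71, 1.57 and 1.71 in MWA+PBS, against 3.72, 4.03 and 2.87 in MWA+2DG. Its log2 difference was 0.76 with an SE of 0.11 (limma adjusted p = 0.00145). In Ass1 and Avpr2, too, replicate 3 lay with replicates 1 and 2.

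Dnase1 and Aqp3 did not pass the threshold with all samples. Dnase1 gave -0.17 with all samples (limma adjusted p = 0.284), -0.30 without replicate 3 (limma adjusted p = 0.0446) and 0.0771 without replicates 1 and 2 (limma adjusted p = 0.637). Leaving out replicate 1 or replicate 2 alone gave -0.14 and -0.08. Aqp3 gave 0.19 (limma adjusted p = 0.253), and from 0.06 without MWA+PBS replicate 2 to 0.28 without MWA+PBS replicate 3. Without MWA+PBS replicates 1 and 2 it gave 0.03. Gatm, Ass1 and Avpr2 kept their direction without replicates 1 and 2, at -2.14, -0.43 and 0.74, in a fit of 1 sample against 3 that assumed the lone sample varied like the others.

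Markers of other tissues were listed to see what moved with the kidney transcripts. The podocyte list summed to between 4.46 and 6.5 FPKM in all samples, with its highest gene Clic3 at up to 3.42 FPKM. The liver list, 10 of 16 genes found, summed to 3.16, 0.48 and 0.37 FPKM in MWA+PBS and to between 0 and 0.21 FPKM in MWA+2DG. Alb, the albumin gene, had 1.87 FPKM in MWA+PBS replicate 1 and was listed at 0 in the other 5 samples, replicate 2 included. Liver transcripts were thus highest in 1 of the 2 samples with kidney transcripts, and their part in the values of Cyp2e1 and Gpx3 was not tested.

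The exocrine pancreas list summed to between 2.33 and 4.70 FPKM, with Cela1, an elastase, at up to 3.76 FPKM. The adrenal cortex list summed to between 2.95 and 5.90 FPKM, with Star, the cholesterol carrier of steroid synthesis, at up to 2.89 FPKM and the highest sum in MWA+PBS replicate 3. The skeletal muscle list summed to between 5.37 and 9.42 FPKM, with the myosin light chain gene Mylpf at up to 7.38 FPKM. None of these 3 sums set replicates 1 and 2 apart from the other samples by as much as the kidney sums did. The adipose list summed to at most 0.27 FPKM, with Car3 the highest gene, and of the lung list only Sftpb was found, at up to 0.03 FPKM.

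Summed epithelial and intestinal genes were high in a different set of samples. The epithelium list summed to 4.89, 14.87 and 3.23 FPKM in MWA+PBS and to between 11.96 and 12.37 FPKM in MWA+2DG. The intestine list summed to 3.75, 9.99 and 3.53 FPKM in MWA+PBS and to between 9.69 and 10.31 FPKM in MWA+2DG. Krt8, a keratin of simple epithelia, had 0.49 and 5.98 FPKM in MWA+PBS replicates 1 and 2, was listed at 0 in replicate 3, and had between 4.49 and 4.76 FPKM in MWA+2DG. Lgals4, an intestinal galectin, had 3.53, 7.41 and 3.53 FPKM in MWA+PBS and between 6.52 and 7.25 FPKM in MWA+2DG. Of the other 6 epithelium genes found, Epcam, Krt19 and Krt14 had the same order, with MWA+PBS replicates 1 and 3 the 2 lowest samples, and Krt18, Cdh1 and Cldn4 did not. Krt18, the keratin partner of Krt8, had FPKM of 2.99, 2.21 and 1.28 in MWA+PBS, against 0.47, 0.95 and 0.73 in MWA+2DG. Cdh1, which encodes E-cadherin, was between 1.08 and 1.62 FPKM in all 6 samples, highest in MWA+PBS replicate 3.

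**Figure D5:**
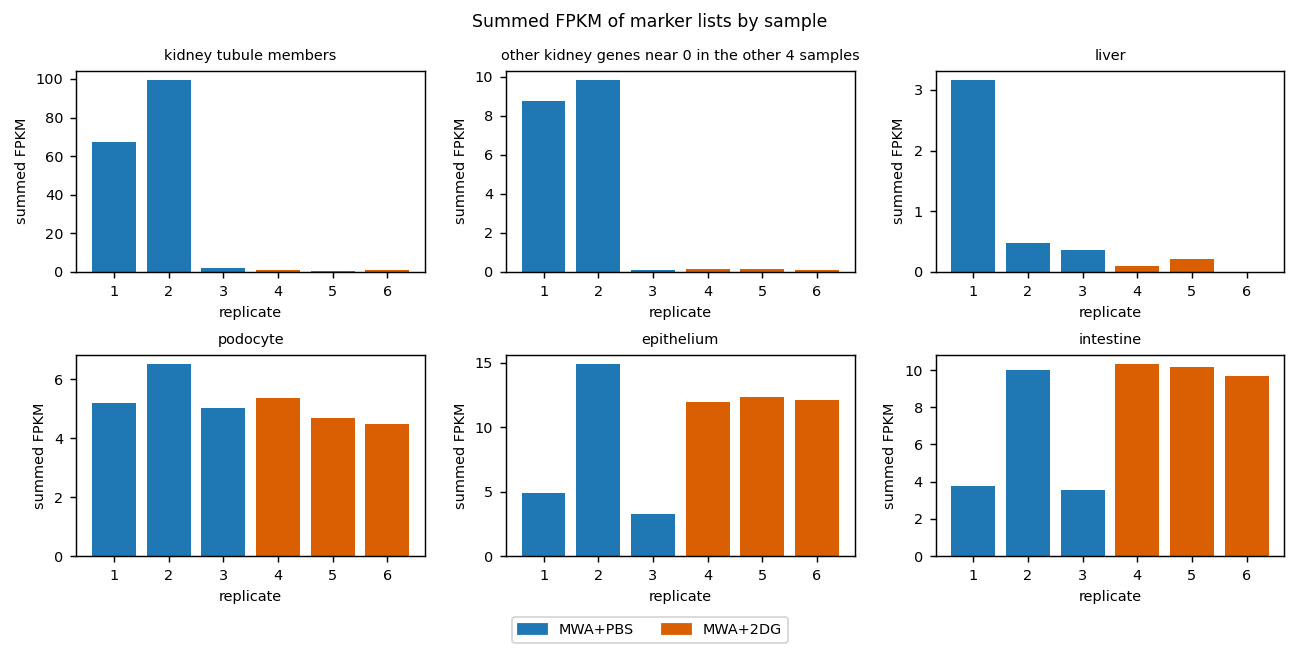
Summed FPKM (vertical axes, each from 0) of 6 gene sets in the 6 samples (horizontal axes, replicates 1 to 3 MWA+PBS in blue, 4 to 6 MWA+2DG in orange). The kidney sets, the second of which holds only genes near 0 in the other 4 samples, are high in replicates 1 and 2, the liver list in replicate 1, and the epithelium and intestine lists in replicate 2 and the MWA+2DG samples, while the podocyte list lies between 4.46 and 6.5 FPKM throughout.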

How the data were processed

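RNA was sequenced from CD8+ T cells of the spleen in 3 MWA+PBS and 3 MWA+2DG samples, grouped by their labels. Per the study's methods and the submitters' processing notes, the authors trimmed poly(A) libraries (fastp in the methods, cutadapt 1.9 in the notes), mapped them with HISAT2 2.0.4 to mm9, handled molecular identifiers with UMI-tools and computed FPKM with StringTie 1.3.4d and ballgown. The annotation used is not stated in these sources. The deposited FPKM carried 2 decimals. FPKM times transcript length showed no common step (highest resonance 0.0582 to 0.0787, where 1 would be whole reads), so the read depth is unknown, counting intervals were not computed, and an entry listed at 0 may be a failed estimate.

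Symbols were matched to 28689 of 28773 gene IDs through GENCODE M21. Each column was mapped to a sample. Values were described per sample. The contrast was fitted with limma 3.58.1 in R 4.3.3 (lmFit, eBayes with a trend, two-sided, Benjamini-Hochberg over all genes tested) on log2(FPKM + 1) for genes with a mean FPKM of at least 1, a scale that understates changes of low genes. It was tested on simulated data. The labels do not say that samples came from separate animals, so p-values measure only the spread between these samples, which may be technical, and they give no batch. Tables were handled with pandas 2.3.3 in Python 3.11.15. Promoter windows of 250 bases came from RefSeq (GRCm38.p6).

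Named genes were the 8 members, the 10 other kidney genes with the highest FPKM, every one called, the highest gene of each other list and the 10 nearest in profile, and some genes under this rule are not reported here. Other names (Slc22a12, Slc5a2, Slc22a6, Slc12a1, Cdh16, Slc3a1, Alb, Epcam, the other epithelium genes and the genes of the searches) were chosen after their values were seen. The members and lists were chosen with earlier results of these data known. Alternatives covered the pseudocount, the filter, scaling, the trend, the study's rule (unadjusted P under 0.05 and a log2 difference over 0.25), leaving out each replicate, and the genes in the sum. The fits without MWA+PBS replicates 1 and 2, the near-0 limits, the comparison by segment, the TATA motif and the searches were added after the data were seen.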

Additional observations from a re-analysis of the deposited data

How the results depend on the processing

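Under median ratio scaling the sums over the 8 genes in MWA+PBS replicates 1 and 2 were still above those in the other 4 samples. Without Kap the sum in MWA+PBS replicate 2 was 31.6 FPKM. Without Gpx3, Fxyd2 and Cyp2e1, which other tissues also express, the sums in MWA+2DG replicates 4, 5 and 6 were 0.01, 0 and 0 FPKM, and that in MWA+PBS replicate 3 was 0. The group means of the sum differed by -55.3 FPKM (MWA+2DG minus MWA+PBS), and by -33.8 without MWA+PBS replicate 2 to -82.4 without MWA+PBS replicate 3. The 8 genes were chosen on these values, and the difference lay in MWA+PBS replicates 1 and 2. In the full sum, MWA+PBS replicate 3 had 2.12 FPKM, beside 0.73 to 1.13 FPKM in MWA+2DG.

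Of the other kidney genes, 3 were called. With a mean FPKM of at least 0.1, 6 of the 34 tested were called, 1 higher and 5 lower. Of all 19016 genes tested, 5765 were called, 2956 higher and 2809 lower. Several of the 34 passed this filter through MWA+PBS alone, the called gene Slc13a3 among them. The direction of such calls is therefore partly set by the filter. Leaving out each replicate gave 3 to 5 calls, beside 3706 to 5195 over all genes, the 5 without MWA+PBS replicate 3, Dnase1 (-0.30 on the log2 scale) among them. Without MWA+PBS replicates 1 and 2, a fit added after the data were seen, Dnase1 turned to 0.0771 on the log2 scale and did not pass, while 3508 genes were called in all against 4907. A pseudocount of 1 kept 4 of the 10 nearest genes, and at least 0.2 FPKM in the pair gave 48 genes in the search instead of 12. No paired analysis was possible because the groups share no replicate number. Unknown depth limits every value near 0: a gene listed at 0 may lie below detection, and the cause of the changes named here was not tested.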

Other observations

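The genes returned by the wider search for MWA+PBS replicates 1 and 2, chosen after the data were seen, were on no list in 30 cases. Many of these were predicted genes or pseudogenes, such as Gm22395, Gm37579 and Rpl30-ps2, and 4 with a known role in kidney or metabolism are given here. Cyp4a10, a fatty acid hydroxylase of kidney and liver, had 0.21 and 1.84 FPKM in MWA+PBS replicates 1 and 2 and was listed at 0 in the other 4 samples. Slc17a1, a phosphate and urate transporter of the proximal tubule, had 0.30 and 0.35 FPKM and was listed at 0 elsewhere. Defb1, a defensin made by kidney epithelium, had 0.35 and 0.40 FPKM and was listed at 0 elsewhere. Inmt, an amine methyltransferase, had 0.54 and 0.46 FPKM and was listed at 0 elsewhere.

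A second set of 17 genes was at least 0.5 FPKM in MWA+PBS replicate 2 and all 3 MWA+2DG samples and at most 0.05 FPKM in MWA+PBS replicates 1 and 3, a search also chosen after the data were seen. Of the 17, Muc2 is on the intestine list and Krt14 on the epithelium list, and Sprr2a1, Sprr2a2 and Ckmt1 are among the others. Lypd8, a protein of the colon surface, had 0.05, 7.40 and 0 FPKM in MWA+PBS and 7.10, 6.07 and 7.18 FPKM in MWA+2DG. Muc2, the main secreted mucin of goblet cells, was listed at 0 in MWA+PBS replicates 1 and 3 and had 1.26 FPKM in replicate 2 and 1.38, 1.22 and 1.68 FPKM in MWA+2DG. Tff3, a trefoil peptide of goblet cells, was listed at 0 in the same 2 samples and had 0.72 FPKM in replicate 2 and 1.38, 0.91 and 0.81 FPKM in MWA+2DG. The search fixed the samples in which these genes are high and low.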
